A study of Rattus norvegicus with 44 samples.

Results

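The comparison set kidneys of rats given high doses of MCHM against kidneys of rats given low doses. The 6 high dose arrays were 3 at 300 mg/kg and 3 at 500 mg/kg, and the 6 low dose arrays were 2 each at 0.1, 1 and 10 mg/kg, chosen by title from the 44 arrays of the series (17 of kidney and 27 of liver). The 3 vehicle arrays (0 mg/kg) and the 2 arrays at 100 mg/kg of the same organ did not enter the test, and their values are given as levels only. All animals were male Harlan Sprague Dawley rats, 6 to 8 weeks old when assigned to groups, on NTP-2000 diet. Every group received corn oil by gavage at 5 mL/kg on 5 days in a row, with crude MCHM in it except in the vehicle group, and the rats were killed 1 day after the last dose. Total RNA of each kidney sample was measured on its own Affymetrix rat genome expression array. The labels call the samples of a dose biological replicates. Per the design text of the series, the submitters left out arrays that showed batch effects; these were not analysed here. All values are RMA log2 levels, in which a difference of 1 is a doubling.

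MCHM is 4-methylcyclohexanemethanol, a primary alcohol that carries a cyclohexane ring, and the crude product is an industrial mixture with MCHM as its main component. Alcohols of this kind are in general oxidised by alcohol and aldehyde dehydrogenases to acids or joined to glucuronic acid, and the products leave through the kidney. The proximal tubule does most of this work in the kidney: it reabsorbs the filtered glucose, phosphate and amino acids, secretes organic acids, and holds the renal cytochromes P450, glutathione transferases and glucuronosyltransferases. Genes of these steps can be induced by receptors that sense foreign compounds (AHR, CAR, PXR), fatty acids (PPARA) or oxidants (NRF2).

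Kidney markers stood at high levels in every array. Lrp2 (megalin, the endocytic receptor of the proximal tubule) lay at 12.39 to 12.69 in the low dose arrays and 12.51 to 12.71 in the high dose arrays, and Umod (uromodulin of the thick ascending limb) at 12.71 to 13.67 and 12.81 to 13.49. Pairs among the 12 arrays correlated at 0.984 to 0.996 over all probe sets, and array medians ran from 5.31 to 5.36. Some arrays carried transcripts of other tissues. Alb, the albumin gene of hepatocytes, was 11.06 in 1 mg/kg replicate 1 and 3.85 to 5.86 in the other low dose arrays. Ucp1, the uncoupling protein of brown fat, was 11.47 in 1 mg/kg replicate 2 and 9.86 in replicate 2 of both 300 and 500 mg/kg, against 4.39 to 5.28 in the other 9 arrays compared. The summed level of the 8 brown fat markers lay at 11.67 to 13.20 in the low dose arrays and 11.76 to 12.47 in the high dose arrays, and that of the 10 hepatocyte markers at 10.23 to 12.39 and 10.38 to 10.60. These arrays stayed in the comparison, and the results without them are given below.

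**Figure D1:**
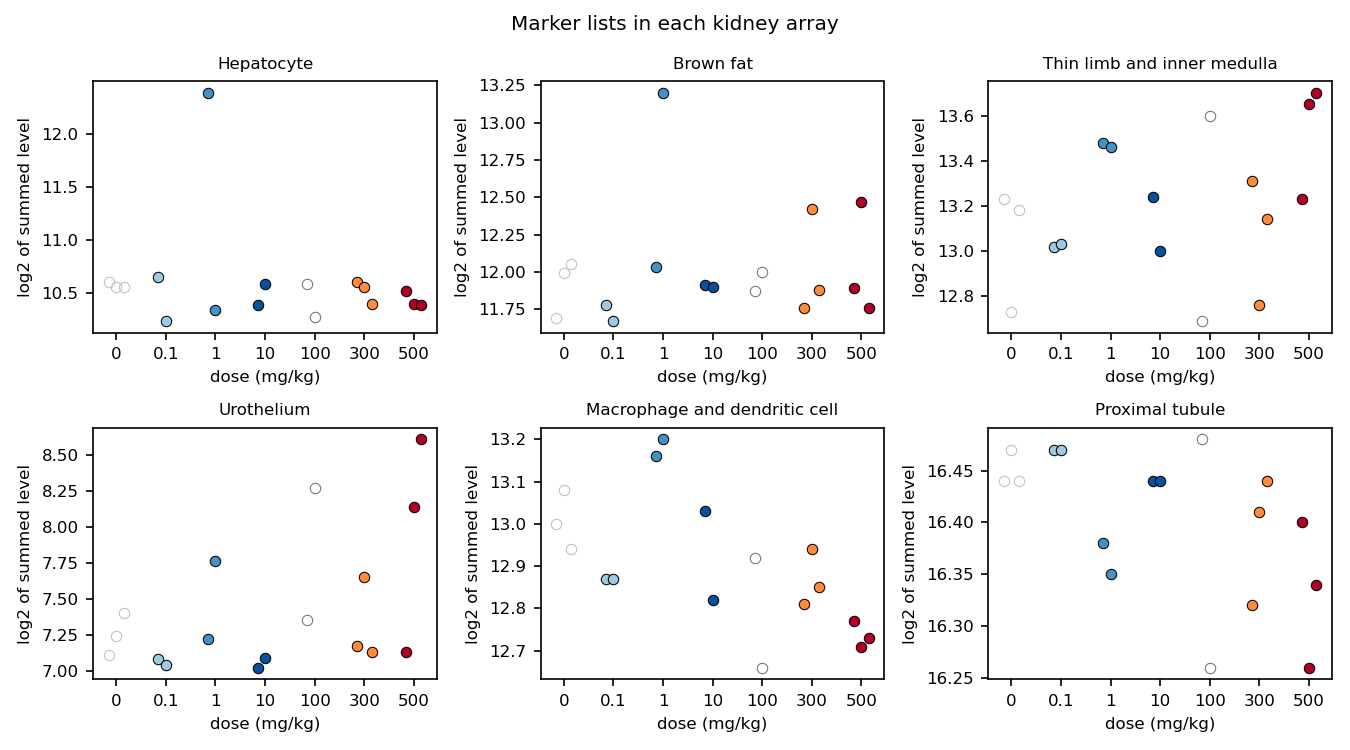
Summed level of 6 marker lists (y axes, log2) in each of the 17 kidney arrays, by dose (x axes, mg/kg); filled points are the 12 arrays compared and open points the vehicle and 100 mg/kg arrays. A single 1 mg/kg array stands at 12.39 for hepatocyte markers and another at 13.20 for brown fat markers, and the urothelium list reaches 8.61 at 500 mg/kg.

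No probe set passed an adjusted p of 0.05 in the pooled comparison. limma tested 31042 probe sets and called 0 (0.0%), with a lowest adjusted p of 0.313, and limma-trend also called 0. At an unadjusted p under 0.05, 2672 probe sets (8.61%) differed, 1157 higher and 1515 lower at the high doses. After a second quantile normalization 1108 were higher and 1051 lower, so the lean toward lower levels depended on the scaling. Among the 15521 probe sets above the median level, without that step, 276 were higher and 1255 lower. The median standard error of a difference was 0.09. Only 13 probe sets differed by more than 1 in either direction, 2 higher and 11 lower. All 6 high dose arrays lay above all 6 low dose arrays for 62 probe sets (0.2%) and below them for 84 (0.271%), 146 in all (0.47%). By gene, with 1 probe set for each of 14217 genes, 391 were higher (2.75%) and 970 lower (6.82%) at an unadjusted p under 0.05, and 40.2% lay above and 59.8% below the low doses, with a median difference of -0.03. The count was also 0 without the arrays with Ucp1 or Alb. It was 1 without the 300 mg/kg dose, where Rfx8, a member of the RFX family of transcription factors, differed by -1.27 (limma adjusted p = 0.00754). Rfx8 was named after its values were seen. Its vehicle arrays, at 6.10 to 6.24, lay below all low dose arrays, at 6.50 to 7.03. The 100 mg/kg arrays stood at 7.20 and 5.68.

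The 8 genes with the smallest p among those lower at the high doses had no overlap between the pools, and none of them passed (limma adjusted p = 0.313 for each). Sectm1b, which encodes a secreted and transmembrane protein of the immunoglobulin superfamily, ranged from 8.74 to 9.15 (median 8.85) in the low dose arrays and from 7.74 to 8.57 (median 8.33) in the high dose arrays. Its lowest value came from a 300 mg/kg array, and the difference was -0.64 (SE 0.12). Asgr1, a subunit of the asialoglycoprotein receptor best known from hepatocytes, ranged from 6.25 to 6.79 (median 6.44) at low doses and from 5.40 to 6.15 (median 5.78) at high doses, a difference of -0.69 (SE 0.13). The array with the albumin signal was not the highest of the low dose arrays for Asgr1, at 6.63, and the difference was -0.50 without the arrays with Ucp1 or Alb.

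Tmem37, a transmembrane protein related to calcium channel gamma subunits, ranged from 10.55 to 10.79 (median 10.71) at low doses and from 10.05 to 10.41 (median 10.25) at high doses. The difference of -0.44 (SE 0.07) corresponds to a level 1.36-fold higher at the low doses. Slc16a13, of the monocarboxylate transporter family, ranged from 9.04 to 9.29 (median 9.17) and from 8.71 to 8.91 (median 8.82), a difference of -0.35 (SE 0.06), and its second probe set differed by -0.33. Each of these genes separated the pools by a small step: the highest of the 6 high dose arrays sat just under the lowest of the 6 low dose arrays.

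The other members of the group differed by 0.38 or less in size. Ifngr1, the ligand-binding chain of the interferon gamma receptor, lay at 8.47 to 8.72 at low doses and 8.15 to 8.36 at high doses, a difference of -0.32 (SE 0.06). Ablim3, an actin-binding LIM protein, lay at 8.34 to 8.49 and 7.75 to 8.15, with -0.38 (SE 0.08). Plekho1, a pleckstrin homology domain protein, lay at 5.96 to 6.31 and 5.71 to 5.95, with -0.36 (SE 0.07). The narrowest spread belonged to Snx12, a sorting nexin of endosomes, at 9.02 to 9.18 and 8.83 to 8.91, with -0.26 (SE 0.05), but its other probe set differed by 0.10, in the opposite direction. For 7 of these 8 genes the vehicle mean was nearer to the low dose mean than to the high dose mean. The exception was Ifngr1, with vehicle arrays at 8.28 to 8.56.

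On the upper side, none of the 8 genes with the smallest p passed either (limma adjusted p = 0.313 to 0.414), and 5 of them had no overlap between the pools. Msln encodes mesothelin, a surface protein of mesothelial cells. It ranged from 5.01 to 5.61 (median 5.30) at low doses and from 5.64 to 6.46 (median 5.93) at high doses, a difference of 0.65 (SE 0.14), or 0.43 without the arrays with Ucp1 or Alb. Its vehicle arrays, at 5.46 to 5.94, fell across both pools. Lgals2, a galectin, ranged from 5.98 to 6.62 (median 6.13) and from 6.57 to 7.09 (median 6.87), a difference of 0.61 (SE 0.12), and the pools overlapped slightly.

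Stra6, the receptor through which cells take up retinol, ranged from 7.53 to 7.99 (median 7.69) at low doses and from 7.72 to 8.69 (median 8.34) at high doses, a difference of 0.56 (SE 0.14). A vehicle array held the highest Stra6 level of all kidney arrays, 8.74. Cyp2d2, a cytochrome P450 of drug metabolism, ranged from 10.88 to 11.39 (median 11.13) and from 11.44 to 11.71 (median 11.52), a difference of 0.40 (SE 0.09). The vehicle arrays spanned 10.98 to 11.58 for Cyp2d2, which covers most of both pools.

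The remaining genes of the group had levels below 5.1. Fev, an ETS transcription factor known from serotonin neurons, lay at 4.52 to 4.74 and 4.86 to 5.06 (difference 0.32, SE 0.06). Dpysl4, a dihydropyrimidinase-like protein, lay at 3.80 to 4.12 and 4.15 to 4.37 (0.33, SE 0.07). Mmp7, the matrix metalloproteinase matrilysin, lay at 3.10 to 3.60 and 3.52 to 3.88 (0.36, SE 0.09), and Lrrc14b, a leucine-rich repeat protein, at 2.93 to 3.20 and 3.22 to 3.54 (0.31, SE 0.07). No scanner files were used here, so these dim probe sets could not be called above or below background. The vehicle mean was nearer to the low dose mean for only 2 of the 8 genes, Fev and Cyp2d2.

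**Figure D2:**
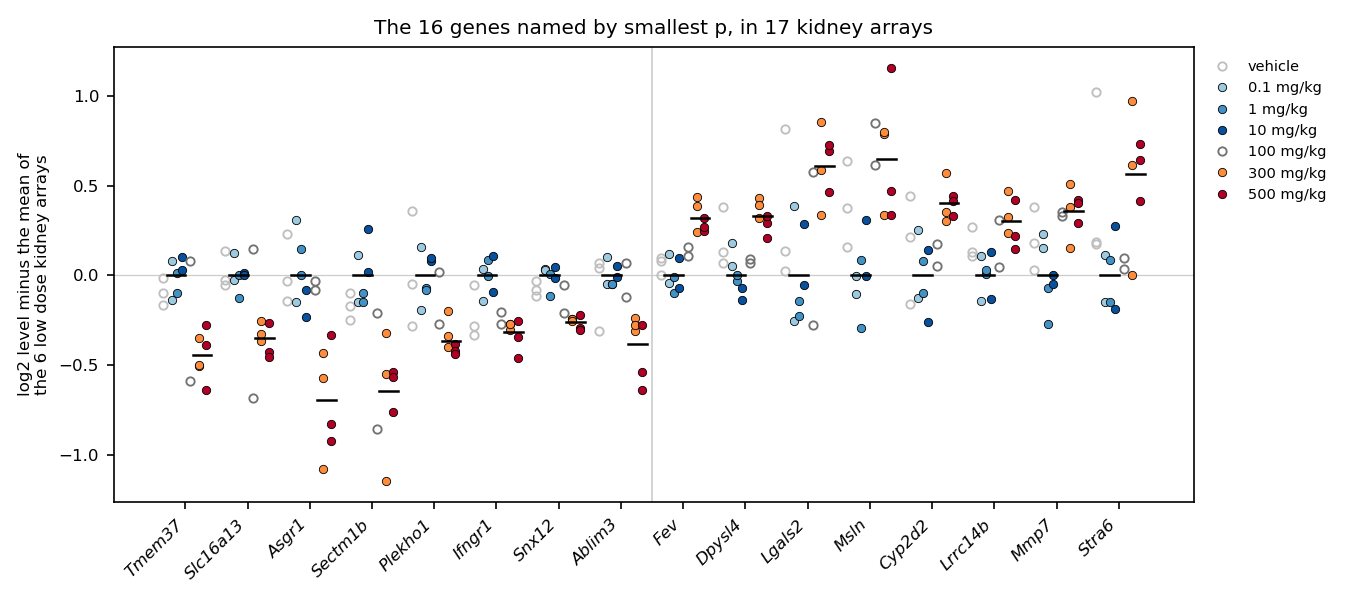
Log2 level of 16 genes minus the mean of the 6 low dose arrays (y axis) in all 17 kidney arrays; filled points are the arrays compared, open points are vehicle and 100 mg/kg arrays, and bars are the means of the low and high dose arrays. The 8 genes on the left have every high dose array below every low dose array, while vehicle arrays of genes on the right, such as Stra6 and Lgals2, reach the high dose values.

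Each high dose alone gave the same count. Against the mean of the low doses, 500 mg/kg had 0 probe sets past the threshold (0.0%; 2763 at an unadjusted p under 0.05) and 300 mg/kg had 0 (0.0%; 2182), both by limma on the same 12 arrays and sharing the low dose arrays. The direct contrast of 500 with 300 mg/kg also gave 0 (0.0%; 1994 unadjusted). For the 16 genes above, 500 and 300 mg/kg differed by at most 0.21 in either direction (lowest limma adjusted p = 0.771). Asgr1 differed from the low doses by -0.69 at each of the high doses, and Ablim3 by -0.28 at 300 mg/kg and -0.48 at 500 mg/kg. The arrays at 100 mg/kg, which lie between the pools in dose, were spread wide for some of these genes: 10.10 and 10.77 for Tmem37, and 8.03 and 8.68 for Sectm1b.

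Several of the probe sets with the largest differences also varied widely within a pool, and the following genes were chosen after their values were seen. Mx2, an interferon-induced GTPase, stood at 4.16, 4.20 and 4.25 in 3 of the high dose arrays and at 4.31 in a 0.1 mg/kg array, and between 8.64 and 9.78 in the other 8 arrays. Its difference was -1.69 with an SE of 1.19 (limma adjusted p = 0.728), so the 2 levels occurred in both pools. RT1-Ba and RT1-Bb encode the chains of a class II histocompatibility molecule. RT1-Ba stood at 5.03 in a 300 mg/kg array and 5.49 in a 500 mg/kg array against 9.14 or more in the others, and RT1-Bb ran from 3.63 to 8.84 at low doses and from 3.79 to 9.73 at high doses, with limma adjusted p of 0.659 and 0.848. Mylk3, a myosin light chain kinase, had a tighter spread, from 6.18 to 7.19 (median 6.28) at low doses and from 4.44 to 6.32 (median 5.37) at high doses. Its difference was -1.02 (SE 0.27, limma adjusted p = 0.423), with vehicle arrays at 5.56 to 7.09.

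Genes of foreign compound metabolism differed little as groups, and no member of any list passed the threshold (0 of all list members over 28 gene lists). Of 18 measured genes induced through CAR and PXR, 14 lay below the low doses with a median of -0.12, against 59.8% below and a median of -0.03 for all genes. Of the 18, 2 were lower and 1 higher at an unadjusted p under 0.05, against 6.82% and 2.75% of all genes. Without the arrays with Ucp1 or Alb the list median was -0.01. The lower member with the smallest p was Gstm1, a mu class glutathione transferase, at 7.17 to 8.52 (median 8.20) in the low dose arrays and 7.13 to 7.82 (median 7.67) in the high dose arrays, a difference of -0.49 (SE 0.19, limma adjusted p = 0.529). The lowest of the low dose arrays was 1 mg/kg replicate 2, which also carries Ucp1. Por, the reductase that passes electrons to P450s, lay at 8.57 to 8.82 and 8.04 to 8.78, with -0.26 (SE 0.10). Cyp3a9 was the higher member, at 2.79 to 3.51 and 3.45 to 3.75, with 0.43 (SE 0.11).

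The 8 measured targets of the aryl hydrocarbon receptor split evenly, 4 above and 4 below, with a median of 0.00 and none under an unadjusted p of 0.05. Cyp1a1, the P450 most readily induced through this receptor, ranged from 5.91 to 8.16 (median 6.91) at low doses and from 6.79 to 9.44 (median 7.70) at high doses. Its difference was 0.82, with a 95% interval of -0.13 to 1.77 (limma adjusted p = 0.638). The vehicle arrays spanned 5.83 to 8.33 and the 100 mg/kg arrays 5.58 to 9.25, so the level varied as widely without MCHM or at a single dose as between the pools. Tiparp, a target that encodes a poly-ADP-ribosyltransferase, differed by -0.18 (SE 0.11).

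Targets of NRF2, the regulator of the antioxidant response, lay below the low doses in 20 of 25 cases, against 59.8% of all genes. At an unadjusted p under 0.05, 3 were lower, against 6.82% of all genes, and 0 higher. The list median was -0.05 (-0.03 after a second quantile normalization, 0.00 without the arrays with Ucp1 or Alb). Nqo1, the quinone reductase used as a marker of NRF2 activity, lay at 6.90 to 7.49 and 7.09 to 7.30, a difference of 0.09 (95% interval -0.10 to 0.28). Abcc4, an efflux transporter for organic anions, lay at 8.60 to 8.95 and 8.30 to 8.83, with -0.29 (SE 0.09, limma adjusted p = 0.491). Me1, the cytosolic malic enzyme, is a member of the same list and is described with the liver comparison.

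Glutathione transferases and glutathione enzymes had 15 of 22 members below, against 59.8% of all genes, and a median of -0.05. Of the 22, 4 were lower and 1 higher at an unadjusted p under 0.05, against 6.82% and 2.75% of all genes. Gstm4 lay at 7.40 to 7.78 (median 7.72) at low doses and 7.12 to 7.70 (median 7.34) at high doses, with -0.33 (SE 0.10). Gsta1, the alpha class transferase abundant in proximal tubule, lay at 12.86 to 13.16 and 12.66 to 12.98, with -0.20 (SE 0.07). The higher member was Gstz1, which acts in tyrosine breakdown, at 9.58 to 9.90 and 9.83 to 10.05, with 0.22 (SE 0.07). The limma adjusted p of these members was 0.481 to 0.528. Probes of mu class transferases can share sequence, so single members of that family are uncertain.

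Among 17 glucuronosyltransferases and sulfotransferases, 12 lay below, against 59.8% of all genes, and the median was -0.04. Ugt2b7, which joins glucuronic acid to steroids and drugs, was one of the few transcripts with a difference above 1 in size. It ranged from 6.39 to 9.21 (median 8.14) in the low dose arrays and from 4.89 to 7.52 (median 6.72) in the high dose arrays, a difference of -1.50 (SE 0.45, 95% interval -2.46 to -0.54, limma adjusted p = 0.481). The vehicle arrays held 7.58 to 8.43 and the 100 mg/kg arrays 7.09 to 8.67. The lowest values of the pools came from 1 mg/kg replicate 2 and 300 mg/kg replicate 2, both arrays with Ucp1. Sult1c3 lay at 4.00 to 6.07 and 5.37 to 5.76, with 0.65 (SE 0.26), and vehicle arrays lay at 5.50 to 5.75. Ugt2b35 lay at 11.53 to 12.46 and 10.62 to 12.79, with -0.56 (SE 0.30), and its highest level, 12.79, was in 300 mg/kg replicate 2. Members of the Ugt2b family are close in sequence, so their probe sets may not separate them.

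Alcohol and aldehyde oxidation had 9 of 21 members above and 12 below, against 40.2% and 59.8% of all genes, and a median of -0.04. Of the 21, 3 were higher and 1 lower at an unadjusted p under 0.05, against 2.75% and 6.82% of all genes. Cyp2e1, the ethanol-oxidising P450, ranged from 10.31 to 11.10 (median 10.86) at low doses and from 10.95 to 11.77 (median 11.30) at high doses. The difference was 0.50 (95% interval 0.17 to 0.84, limma adjusted p = 0.481), and vehicle arrays lay at 10.19 to 10.97, in the range of the low doses. Aldh2, the mitochondrial aldehyde dehydrogenase, lay at 11.24 to 11.60 and 10.98 to 11.39, with -0.24 (SE 0.08). Cat, catalase, which can also oxidise alcohols, lay at 12.74 to 13.04 and 12.94 to 13.10, with 0.15 (SE 0.06), but vehicle arrays lay at 13.00 to 13.06. Adh1c, the class I alcohol dehydrogenase, differed by -0.07 (95% interval -0.38 to 0.24) and Aldh1a1, the cytosolic retinal dehydrogenase, by -0.16 (-0.35 to 0.04).

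Targets of PPARA, which drives fatty acid oxidation, had 22 of 36 members below, against 59.8% of all genes, and a median of -0.04. Cpt1a, which carries fatty acids into mitochondria, lay at 9.98 to 10.35 and 9.77 to 10.10, with -0.26 (SE 0.08), and its second probe set differed by -0.31. Cyp4a1, the omega-hydroxylase induced by PPARA ligands, differed by 0.24 (95% interval -0.02 to 0.51). Cyp3a23-3a1 is induced through PXR. It lay at 2.76 to 4.88 and 2.69 to 3.52, and its highest value, 4.88, was in the 1 mg/kg array with albumin. Its difference was -0.35 (95% interval -0.96 to 0.26).

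Sterol and fatty acid genes moved little. Cholesterol synthesis and sterol-regulated genes lay above the low doses in 17 of 21 cases, against 40.2% for all genes, with a median of 0.09 and 1 higher at an unadjusted p under 0.05. That gene was Insig1, which holds back sterol-regulated transcription, at 8.46 to 8.80 and 8.69 to 8.89, with 0.18 (SE 0.07, limma adjusted p = 0.536). The 20 fatty acid and triglyceride synthesis genes had a median of -0.03 (0.02 after a second quantile normalization).

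Transport genes of the proximal tubule lay below the low doses in 25 of 36 cases, against 59.8% of all genes. At an unadjusted p under 0.05, 6 were lower, against 6.82% of all genes, and 0 higher. Their median difference was -0.13, or -0.09 after a second quantile normalization. The median was -0.03 at 300 mg/kg and -0.18 at 500 mg/kg, both against the same low dose arrays, and -0.14 without the arrays with Ucp1 or Alb. Medians of medulla markers ran the other way between these doses, with no member past the threshold: the 8 thin limb and inner medulla markers had a median of -0.13 at 300 mg/kg and 0.59 at 500 mg/kg, and the 7 thick ascending limb markers -0.11 and 0.18. Replicates 2 and 3 of 500 mg/kg had the highest inner medulla sums of the 12 arrays, 13.65 and 13.70, with proximal tubule sums of 16.26 and 16.34, and 100 mg/kg replicate 2 stood at 13.60 and 16.26. In 300 mg/kg replicate 1 the inner medulla sum was lower, 13.31, with a proximal tubule sum of 16.32. The part of the medulla in the transporter values was not tested. Slc5a2, the sodium-glucose transporter SGLT2, lay at 10.22 to 10.63 (median 10.43) at low doses and 9.73 to 10.40 (median 10.06) at high doses, with -0.34 (SE 0.11, limma adjusted p = 0.497). Slc20a2, a phosphate transporter, lay at 6.69 to 7.19 and 6.62 to 6.82, with -0.25 (SE 0.08). Slc7a7, which exports cationic amino acids from the tubule cell, lay at 11.21 to 11.62 and 10.53 to 11.47, with -0.35 (SE 0.14), of which 300 mg/kg showed -0.07 and 500 mg/kg -0.63. Its lowest levels, 10.53 and 10.65 at 500 mg/kg and 10.50 at 100 mg/kg, were in the arrays with the high inner medulla sums. The other 100 mg/kg array stood at 11.68. The 1 mg/kg arrays had the highest inner medulla sums of the low doses, 13.48 and 13.46. Slc7a7 stood there at 11.23 and 11.21, the low end of the low dose range. Slc13a3, the dicarboxylate transporter, lay at 12.22 to 12.50 and 11.65 to 12.28, with -0.30 (SE 0.11). The summed level of the 11 measured proximal tubule markers was 16.35 to 16.47 at low and 16.26 to 16.44 at high doses, so the pools overlapped; Slc5a2 and Slc13a3 are also on that list.

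The calcium gene S100g differed by more than most list members. S100g encodes calbindin-D9k, the vitamin D dependent calcium binder, and ranged from 6.26 to 7.66 (median 7.11) in the low dose arrays and from 5.75 to 6.38 (median 6.15) in the high dose arrays. The pools overlapped through the 0.1 mg/kg replicate 2 array, at 6.26. The difference was -0.92 (SE 0.20, 95% interval -1.35 to -0.49, limma adjusted p = 0.347), with -0.89 at 300 and -0.94 at 500 mg/kg, and vehicle arrays lay at 6.64 to 7.11. The vitamin D and calcium list as a whole had 8 of 17 members above and 9 below, with a median of -0.05. Pth1r, the parathyroid hormone receptor, lay at 11.07 to 11.35 and 10.69 to 11.28, with -0.23 (SE 0.09).

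Other nephron functions showed no common direction. The 30 distal salt and water transport genes had 14 above and 16 below (median -0.02), with Scnn1g, a subunit of the epithelial sodium channel, at -0.20 (SE 0.08) and Kcnj10, a basolateral potassium channel, at 0.15 (SE 0.06). Vehicle arrays for Kcnj10, at 3.12 to 3.24, lay above all low dose arrays, at 2.89 to 3.07. The 14 genes of the renin, angiotensin and kallikrein system had a median of -0.03, and Agtr2, an angiotensin II receptor, lay at 3.79 to 4.08 and 4.00 to 4.42, with 0.28 (SE 0.09). Vehicle arrays for Agtr2 lay at 4.01 to 4.49. Gluconeogenesis and ammonia production had 9 of 19 above and 10 below (median 0.00). Pc, pyruvate carboxylase, differed by -0.35 (SE 0.12), with -0.16 at 300 and -0.54 at 500 mg/kg. Its levels in the arrays with the high inner medulla sums were 8.97 and 9.14 at 500 mg/kg and 9.36 at 100 mg/kg. The other 500 mg/kg array stood at 9.55 and the other 100 mg/kg array at 10.06. The 1 mg/kg arrays, with inner medulla sums of 13.48 and 13.46, stood at 9.66 and 9.63, the low end of the low dose arrays. The 300 mg/kg arrays had lower inner medulla sums, 13.31, 12.76 and 13.14, and stood at 9.42, 9.59 and 9.76. The part of the medulla in the Pc difference was not tested. Gpt, alanine aminotransferase, differed by 0.34 (SE 0.14).

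Kidney injury markers did not differ beyond their spread. Of 28 measured, 21 lay below the low doses, against 59.8% of all genes, with a median of -0.07. Only 1 of the 28 was lower at an unadjusted p under 0.05, against 6.82% of all genes. Havcr1, which encodes KIM-1 and marks injured proximal tubule, lay at 3.93 to 4.81 (median 4.07) and 3.73 to 5.26 (median 4.01), a difference of -0.07 (95% interval -0.56 to 0.42), and its highest value was in a single 300 mg/kg array. Lcn2 (NGAL) differed by 0.07 (-0.28 to 0.43), Clu (clusterin) by 0.08 (-0.18 to 0.34) and Spp1 (osteopontin) by 0.14 (-0.71 to 0.99). The intervals leave room for differences of up to these bounds. Tnfrsf12a, the receptor for the cytokine TWEAK, lay at 7.01 to 7.60 and 6.83 to 7.16, with -0.26 (SE 0.09). The complement gene C3 differed by -0.42 (SE 0.21), and its highest level, 7.80, was in the 1 mg/kg array with albumin.

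Stress response lists were near the median of all genes. The amino acid response driven by ATF4 had 17 of 28 members below, against 59.8% of all genes, and a median of -0.05. Of the 28, 5 were lower and 1 higher at an unadjusted p under 0.05, against 6.82% and 2.75% of all genes. Gdf15, a stress-induced cytokine, ranged from 6.59 to 7.54 (median 7.38) and from 6.37 to 7.13 (median 6.69), with -0.54 (SE 0.17, limma adjusted p = 0.481), of which 300 mg/kg showed -0.31 and 500 mg/kg -0.76. Atf4 itself lay at 9.53 to 9.91 and 9.37 to 9.70, with -0.22 (SE 0.08), and Aldh18a1, of proline synthesis, at 6.48 to 6.83 and 6.24 to 6.64, with -0.27 (SE 0.08).

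Chaperone genes showed single members apart rather than a shift. The heat shock list had 11 of 16 members above, against 40.2% of all genes, and a median of 0.02. Yet Bag3, a co-chaperone induced by protein stress, lay at 8.67 to 9.03 (median 8.95) and 8.46 to 8.68 (median 8.63), with -0.31 (SE 0.07, limma adjusted p = 0.361). Dnajb9, a chaperone of the endoplasmic reticulum, lay at 8.45 to 8.78 and 8.16 to 8.56, with -0.29 (SE 0.08), while its list of 22 had a median of -0.02 (0.02 after a second quantile normalization). The 19 cytosolic aminoacyl-tRNA synthetases had a median of -0.05 (0.01 after a second quantile normalization), and Cars1, the cysteine enzyme, lay at 7.23 to 7.59 and 7.06 to 7.24.

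Among 15 p53 targets 14 lay below, against 59.8% of all genes, with a median of -0.06 and 1 lower at an unadjusted p under 0.05. Cdkn1a, the p53-induced inhibitor of the cell cycle, differed by -0.07 (95% interval -0.36 to 0.23) and Plk2, a polo-like kinase, by -0.25 (SE 0.10). The 36 cell cycle and DNA replication genes split 18 above and 18 below with a median of 0.00 and none under an unadjusted p of 0.05.

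Immediate early genes are switched on briefly after a stimulus, and clock genes cycle through the day. Of 22 immediate early genes, 9 lay above and 13 below, against 40.2% and 59.8% of all genes, with a median of -0.02. Of the 22, 5 were lower and 1 higher at an unadjusted p under 0.05, against 6.82% and 2.75% of all genes. Nr4a1, a nuclear receptor induced within minutes of a stimulus, lay at 5.81 to 6.45 and 5.57 to 6.09, with -0.37 (SE 0.11), and Klf6, a zinc finger factor, at 8.30 to 8.59 and 8.02 to 8.46, with -0.22 (SE 0.08). Fos was higher by 0.18 without overlap on this probe set, while its other probe set differed by -0.25. The 18 clock genes had a median of -0.06, with Bhlhe40, a repressor of the clock loop, at -0.29 (SE 0.12).

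Ribosomal proteins and proteasome subunits showed small differences, mostly above the low doses for the ribosomal proteins and mostly below for the proteasome. Of 20 cytosolic ribosomal proteins 18 lay above, against 40.2% of all genes, with a median of 0.04. Of 30 proteasome subunits 26 lay below, against 59.8% of all genes, with a median of -0.05 (-0.01 after a second quantile normalization). None of the ribosomal or proteasome members had an unadjusted p under 0.05. The 28 oxidative phosphorylation subunits had a median of -0.03, the same as all genes.

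Macrophage transcripts had the lowest median of the lists that did not rest on a single array. Of 11 markers of macrophages and dendritic cells, 10 lay below the low doses and 6 had an unadjusted p under 0.05, against 6.82% of all genes lower at that level. The median was -0.27, with -0.22 at 300 mg/kg and -0.33 at 500 mg/kg against the same low dose arrays, -0.22 after a second quantile normalization and -0.22 without the arrays with Ucp1 or Alb. None passed the threshold (lowest limma adjusted p = 0.384). In bulk kidney, fewer cells of a type and less RNA per cell cannot be told apart.

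C1qa, a chain of complement component C1q made by resident macrophages, ranged from 7.65 to 8.00 (median 7.91) in the low dose arrays and from 7.20 to 7.64 (median 7.56) in the high dose arrays, with no overlap, a difference of -0.36 (SE 0.08). C1qb lay at 6.30 to 6.98 (median 6.83) and 6.21 to 6.52 (median 6.33), with -0.41 (SE 0.11), and the pools overlapped. Adgre1, a surface receptor used as a macrophage marker, lay at 5.76 to 6.02 and 5.21 to 5.97, with -0.34 (SE 0.11). The vehicle arrays lay at 7.62 to 8.09 for C1qa, 6.55 to 7.09 for C1qb and 5.86 to 6.32 for Adgre1. For C1qb they were all above the high dose arrays, while for C1qa the lowest vehicle array was within the high dose range, as were 2 of the 3 for Adgre1. The summed level of the list was 12.82 to 13.20 (median 12.95) at low doses, 12.71 to 12.94 (median 12.79) at high doses and 12.94 to 13.08 with vehicle.

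A further pair of phagocyte genes, chosen after their values were seen, had no overlap. Cybb, the catalytic subunit of the phagocyte NADPH oxidase, ranged from 8.30 to 8.74 (median 8.64) and from 7.74 to 8.26 (median 8.16), with -0.48 (SE 0.10, limma adjusted p = 0.313) and a second probe set at -0.44. Ccl6, a chemokine of myeloid cells, ranged from 7.21 to 7.69 (median 7.40) and from 6.35 to 7.15 (median 6.98), with -0.55 (SE 0.13, limma adjusted p = 0.361). The neutrophil genes S100a9 and S100a8 differed by -0.48 (SE 0.14) and -0.35 (SE 0.11). In all, 4 of the 5 neutrophil markers lay below, against 59.8% of all genes.

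Interferon-stimulated genes lay below the low doses in 21 of 22 cases, against 59.8% of all genes. At an unadjusted p under 0.05, 5 were lower, against 6.82% of all genes, and 0 higher. The list median was -0.13 (-0.23 at 300 and -0.10 at 500 mg/kg), or -0.10 after a second quantile normalization. Ifi27, an interferon-induced mitochondrial and nuclear membrane protein, lay at 10.27 to 10.91 (median 10.56) and 10.06 to 10.44 (median 10.23), with -0.31 (SE 0.10, limma adjusted p = 0.491). Psmb8, a catalytic subunit of the immunoproteasome, lay at 6.96 to 7.38 and 6.76 to 7.06, with -0.27 (SE 0.09). The macrophage list given above had medians of -0.22 at 300 and -0.33 at 500 mg/kg. The 9 T and NK cell markers had a median of -0.05 (0.02 at 300 and -0.12 at 500 mg/kg) and summed levels of 8.18 to 8.36 at low and 7.83 to 8.48 at high doses. The part of those cells in the interferon values was not tested.

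Matrix and vessel genes lay lower too. Of 27 extracellular matrix genes 25 lay below, 7 at an unadjusted p under 0.05, against 59.8% and 6.82% of all genes. The matrix median was -0.15 (-0.20 without the arrays with Ucp1 or Alb, -0.10 after a second quantile normalization). Sparc, a collagen-binding matrix protein, ranged from 11.33 to 11.54 (median 11.44) and from 10.87 to 11.27 (median 11.20) with no overlap, a difference of -0.28 (SE 0.07, limma adjusted p = 0.424), and its second probe set differed by -0.34. Col4a2 and Col5a1, collagen chains of basement membrane and fibrils, differed by -0.25 (SE 0.09) and -0.23 (SE 0.08). The 10 endothelial markers all lay below, 2 at an unadjusted p under 0.05, with a median of -0.13 (-0.08 after a second quantile normalization). Tie1, an endothelial receptor kinase, lay at 6.22 to 6.54 and 6.04 to 6.23, with -0.29 (SE 0.07), and Pecam1 (CD31) at 7.33 to 7.85 and 6.99 to 7.51, with -0.31 (SE 0.11). Vehicle arrays stood at 11.15, 11.42 and 11.23 for Sparc, 6.18, 6.60 and 6.61 for Tie1, and 7.37, 7.38 and 7.19 for Pecam1. All of those for Pecam1 lay within the high dose range, as did all but the highest for Sparc and only the lowest for Tie1. The summed endothelial level was 11.53 to 11.74 at low and 11.45 to 11.82 at high doses, and that of the 10 fibroblast and pericyte markers 11.74 to 12.35 and 11.53 to 12.22. The part of cell makeup in the matrix values was not tested.

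Markers of the inner medulla and of tissue around the kidney varied between arrays within a dose. The 8 thin limb and inner medulla markers had a median of 0.20, made of -0.13 at 300 mg/kg and 0.59 at 500 mg/kg, with summed levels of 13.00 to 13.48 at low and 12.76 to 13.70 at high doses. The 8 urothelium markers had a median of 0.19 and summed levels of 7.02 to 7.76 and 7.13 to 8.61. Upk1b, a uroplakin, lay at 3.21 to 4.05 and 3.40 to 5.12, while the 100 mg/kg arrays stood at 4.65 and 5.83. The urothelium list moved in the same direction as Msln and Mmp7 above, and its part in their values was not tested. Of 6 adrenal cortex markers 5 lay above, against 40.2% of all genes, with a median of 0.22 (0.13 without the arrays with Ucp1 or Alb). Cyp11a1, which starts steroid synthesis, lay at 5.10 to 5.56 and 5.54 to 5.97, with 0.34 (SE 0.09), and Star, which feeds it cholesterol, differed by 0.27 (SE 0.10). The vehicle arrays for Cyp11a1, at 5.55 to 5.92, lay within the high dose range. The summed adrenal level was 7.05 to 7.19 at low doses, 7.19 to 7.44 at high doses and 7.10 to 7.40 with vehicle. Podocyte markers had a median of -0.10 over 8 genes, and the podocyte gene Nphs1 (nephrin) lay at 5.83 to 6.38 and 5.47 to 6.10. The hepatocyte list had the lowest median of all, -0.39 over 10 genes, but 0.02 without the arrays with Ucp1 or Alb, and rested on the 1 mg/kg array with albumin.

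**Figure D3:**
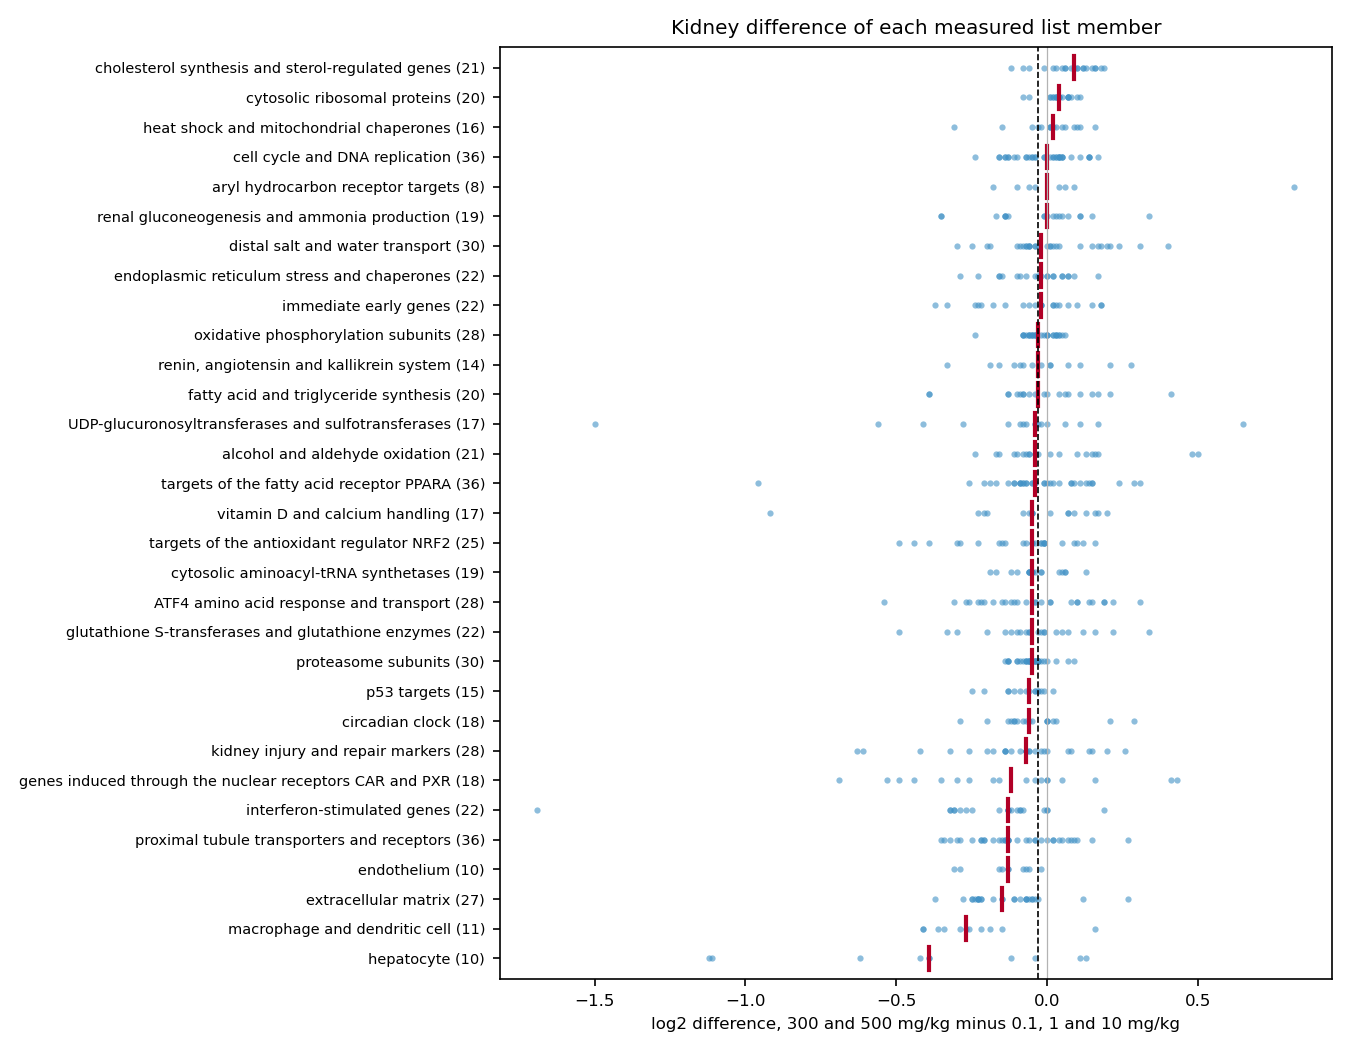
Log2 difference of every measured member (points) of the 28 gene lists and of the endothelial, macrophage and hepatocyte markers, high minus low doses in kidney (x axis), with list medians (red bars), the number of measured members in parentheses and the median of all genes, -0.03 (dashed line). List medians run from -0.15 for extracellular matrix to 0.09 for cholesterol synthesis among the 28 lists, and the macrophage markers sit at -0.27.

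The same pools of doses were compared in liver, with 8 high dose and 11 low dose arrays, to ask where the kidney difference departs from the liver one. In liver limma called 137 probe sets (0.441%). None of the 137 was called in kidney, and 70 of them had the same sign there. The median size of their difference was 0.40 in liver and 0.10 in kidney, where it was 0.08 over all probe sets. The 137 were picked by their liver values, which favours large liver differences, so these sizes are not an even comparison. The share of the same sign over all probe sets is not given here. The kidney difference minus the liver difference, fitted over 31 arrays, passed an adjusted p of 0.05 for 10 probe sets (0.0322%), 8 with the kidney difference below the liver one and 2 above. They name 7 genes: Sectm1b, Ush1c, Me1 (by each of its probe sets), Tnfaip8l1, Asgr1, Sqstm1 and C5l1. The labels do not say whether liver and kidney samples came from the same animals.

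Of the 3 genes with the smallest p in the organ difference, none passed in kidney alone, and Sectm1b did not pass in liver either. Their promoter sequences are shown because the signs of their differences were opposite in kidney and liver, and 1 of the genes is a target of NRF2. Each is the 250 bases before the gene start, 5′ to 3′ on the gene's strand, from RefSeq (assembly GRCr8): Me1 at chr8:96540245-96540494 on the minus strand, Sectm1b at chr10:106832105-106832354 on the minus strand and Ush1c at chr1:105880083-105880332 on the minus strand. Capitals mark matches on either strand to TGACNNNGC, the core of the antioxidant element bound by NRF2. Windows of the same length held it in 3373 of 33469 promoters in the table (10.1%).
Me1: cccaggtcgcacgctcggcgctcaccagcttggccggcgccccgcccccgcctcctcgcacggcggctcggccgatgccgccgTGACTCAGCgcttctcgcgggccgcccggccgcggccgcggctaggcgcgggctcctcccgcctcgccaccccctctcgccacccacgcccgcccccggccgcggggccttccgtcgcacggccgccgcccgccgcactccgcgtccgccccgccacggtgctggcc
Sectm1b: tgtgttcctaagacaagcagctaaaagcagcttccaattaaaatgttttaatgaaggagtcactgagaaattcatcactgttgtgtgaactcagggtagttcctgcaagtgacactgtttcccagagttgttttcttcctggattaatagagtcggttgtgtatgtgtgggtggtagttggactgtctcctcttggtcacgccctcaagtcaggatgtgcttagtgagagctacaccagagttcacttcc
Ush1c: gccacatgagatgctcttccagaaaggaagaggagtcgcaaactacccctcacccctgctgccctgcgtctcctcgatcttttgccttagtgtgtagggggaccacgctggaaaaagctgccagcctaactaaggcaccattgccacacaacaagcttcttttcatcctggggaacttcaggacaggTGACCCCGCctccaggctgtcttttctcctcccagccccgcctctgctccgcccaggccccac
The Me1 window held 1 match, which begins 167 bases before the start, and the Ush1c window 1, which begins 63 bases before it. The Sectm1b window held none, and none of the 3 held TTCNNNGAA, the element of STAT factors, which 7.67% of the windows hold. A match is a run of letters and says nothing of binding in these tissues.

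Me1, the malic enzyme that makes NADPH for lipid synthesis, ranged from 9.52 to 9.71 (median 9.63) in the low dose kidneys and from 8.96 to 9.45 (median 9.21) in the high dose kidneys. The kidney difference was -0.39 (SE 0.09) with no overlap and the second probe set at -0.44, but it did not pass in kidney alone (limma adjusted p = 0.336). In liver Me1 ranged from 7.98 to 8.82 (median 8.28) at low doses and from 8.45 to 9.50 (median 9.01) at high doses, and rose by 0.64 (SE 0.13, limma adjusted p = 0.0262). The differences in the 2 organs differed by -1.03 (SE 0.18, limma adjusted p = 0.0254), and by -0.90 (adjusted p = 0.0412) on the second probe set. The first probe set passed in 12 of 16 alternative fits and the second in 7 of 16. Without the arrays with Ucp1 or Alb the limma adjusted p was 0.112 and 0.129, and with each dose and organ as its own group 0.0585 and 0.0734. After a second quantile normalization it was 0.0384 and 0.0932.

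Sectm1b, given above for kidney, ranged in liver from 7.69 to 8.06 (median 7.90) at low doses and from 7.88 to 8.26 (median 8.10) at high doses, a difference of 0.18 (SE 0.06, limma adjusted p = 0.225). The 300 mg/kg livers, at 7.88 to 8.04, lay within the low dose range, and the 500 mg/kg livers stood at 8.16 to 8.26. The organs differed by -0.83 (SE 0.13, limma adjusted p = 0.00642). Ush1c encodes harmonin, a scaffold protein of microvilli and of hair cells. It ranged from 8.51 to 8.89 (median 8.86) at low doses and from 8.29 to 8.83 (median 8.47) at high doses in kidney, where the difference was -0.32 (SE 0.10, limma adjusted p = 0.481). The kidney pools overlapped. In liver it ranged from 3.22 to 3.83 (median 3.38) at low doses and from 3.73 to 4.29 (median 3.96) at high doses, and rose by 0.53 (SE 0.09, limma adjusted p = 0.00992). The organs differed by -0.85 (SE 0.14, limma adjusted p = 0.00891). Both Sectm1b and Ush1c passed in all 16 alternative fits of the organ difference, 12 of which left out 1 kidney array each. No fit left out a liver array, so dependence on single liver arrays was not tested. The liver levels of Ush1c are as dim as those that could not be called above or below background in kidney.

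The other genes passed in fewer fits. Tnfaip8l1, of the TNFAIP8 family, lay at 4.75 to 5.54 and 4.42 to 4.91 in kidney and at 6.71 to 7.40 and 7.37 to 7.75 in liver, with an organ difference of -0.82 (SE 0.15, limma adjusted p = 0.0412), and passed in 10 of 16. Asgr1 differed between the organs by -0.64 (adjusted p = 0.0412, 7 of 16), with liver arrays at 11.12 to 11.40 and 11.07 to 11.33. Sqstm1, the autophagy receptor p62 and a target of NRF2, lay at 11.06 to 11.20 and 10.72 to 11.09 in kidney and at 11.33 to 11.66 and 11.64 to 11.92 in liver, with -0.45 (adjusted p = 0.0481, 4 of 16). The Sqstm1 probe sets other than this one differed in kidney by 0.10, 0.09 and -0.26, so its direction there was not uniform. C5l1 was the named gene with the kidney difference above the liver one. It lay at 3.14 to 3.84 and 3.73 to 4.19 in kidney and at 8.77 to 9.28 and 8.65 to 8.97 in liver, with 0.67 (SE 0.13, limma adjusted p = 0.0412, 5 of 16).

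**Figure D4:**
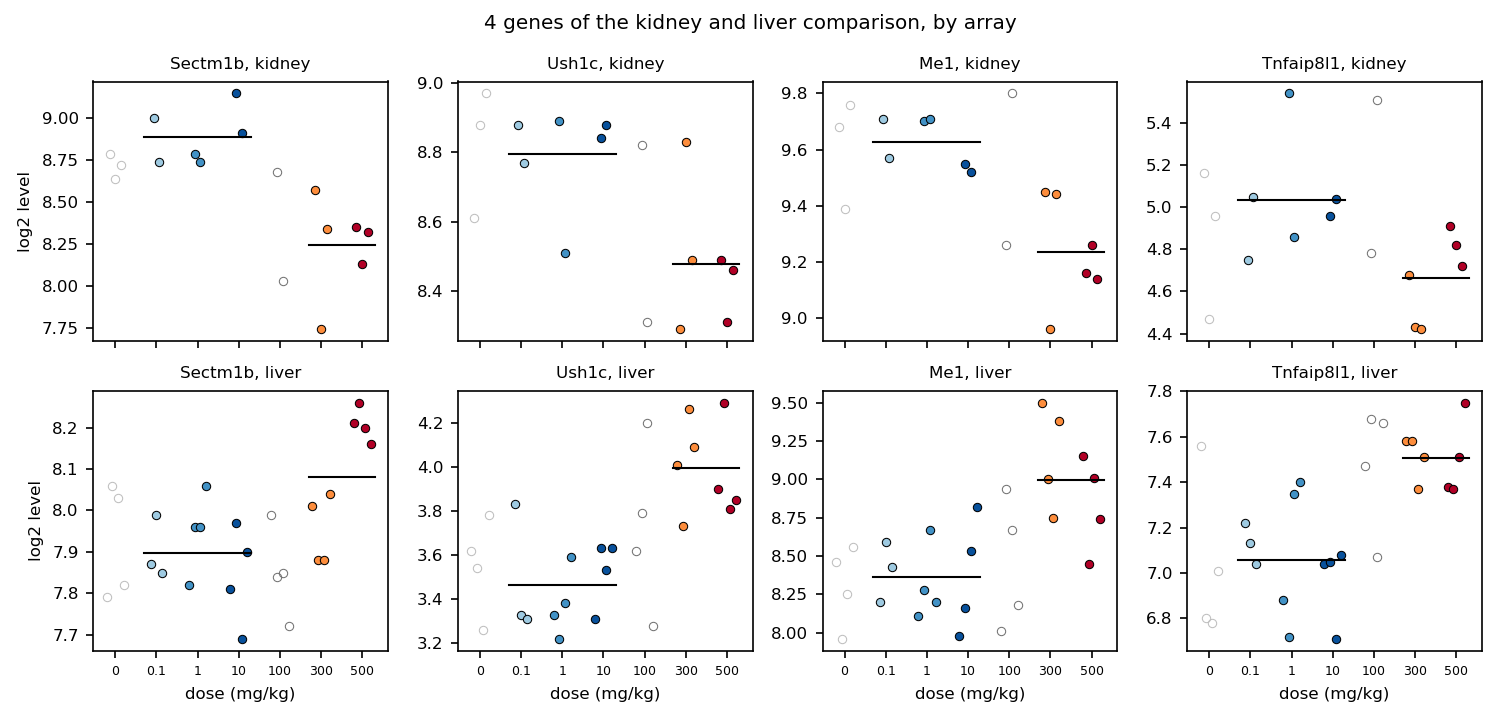
Log2 level of Sectm1b, Ush1c, Me1 and Tnfaip8l1 (y axes) in each array by dose (x axes, mg/kg), kidney above and liver below; filled points are the low and high dose arrays, open points vehicle and 100 mg/kg, and bars the means of the pools. In kidney the high dose bar lies below the low dose bar for each gene, and in liver it lies above.

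Among the 28 gene lists, liver and kidney medians differed most for fatty acid and triglyceride synthesis, -0.03 in kidney and 0.26 in liver, where 8 members passed. The NRF2 targets had -0.05 in kidney (0.00 without the arrays with Ucp1 or Alb) and 0.13 in liver (2 passed). The interferon-stimulated genes had -0.13 and 0.08 (0 passed). The extracellular matrix and endothelial lists lay below the low doses in both organs, at -0.15 and -0.19 for matrix and at -0.13 and -0.12 for endothelium. Cholesterol synthesis lay above in both, at 0.09 and 0.14. These are medians side by side, and the list differences between organs were not tested.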

How the data were processed

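Kidney and liver arrays were grouped by title. The deposited table holds log2 expression values made with RMA, per the submitters' processing notes; neither its version nor whether the organs were normalized together is given in the sources used here. Quantile normalization, which is part of RMA, would hide a shift shared by most transcripts, and dim changes are compressed. Of 31099 probe sets, 57 controls were left out. Each gene was represented by the probe set brightest on average over the 12 arrays, among those with 1 symbol in the platform annotation (20826 probe sets, 20758 of them updated by gene ID). limma 3.58.1 in R 4.3.3 (lmFit, eBayes, two-sided, Benjamini-Hochberg over all probe sets, threshold 0.05) gave every p, and was tested on simulated data. The number of arrays limits the precision. Named are, in each direction, up to 12 genes past the threshold, filled to 8 by smallest p, up to 3 per gene list, up to 4 each way in the organ difference, and 12 genes of interest. The members and lists were chosen with earlier results of these data known. Lists share genes (Gstm1 is in 3). Alternatives were other dose groupings, array scalings, a filter on dim probe sets, limma-trend, a replicate block, and each kidney array or dose left out. Leaving out arrays with Ucp1 or Alb above 9 was chosen after seeing the data. Some items of the table are not reported here.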

Additional observations from a re-analysis of the deposited data

Results flagged for a closer look

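Single arrays stood apart from the other 5 of their pool for 28 of 204 gene and pool pairs, by Dixon's test on 102 genes. Chance passes the test in about 1 of 20. Some genes, such as Mx2, were chosen after their values were seen, and Alb and Ucp1 define the arrays left out above. The count is therefore no measure of an excess over chance. In 1 mg/kg replicate 1 the genes that stood apart were Alb at 11.06, Ahsg (fetuin-A, also of hepatocytes) at 8.15, C3 at 7.80, Cyp3a23-3a1 at 4.88 and Lcn2 at 5.95, all high. In 1 mg/kg replicate 2, Ucp1 at 11.47, Adipoq (adiponectin of fat cells) at 7.99, Resp18 at 8.64 and Upk1b at 4.05 were high, and Gstm1 at 7.17, Gdf15 at 6.59, Ush1c at 8.51 and Snx12 at 9.02 were low. In 0.1 mg/kg replicate 2, Mx2 at 4.31, Gstm4 at 7.40 and Aldh18a1 at 6.48 were low and Ugt2b35 at 12.46 was high.

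Among the high dose arrays, 300 mg/kg replicate 2 was high for Ugt2b35 at 12.79, Ush1c at 8.83 and Tiparp at 8.67, and low for Sqstm1 at 10.72 and Gstz1 at 9.83. Havcr1 was high at 5.26 in 300 mg/kg replicate 3. In 500 mg/kg replicate 3, Scnn1g was high at 6.90 and Sparc at 10.87, C1qa at 7.20 and Cybb at 7.74 were low. Cars1 was low at 7.06 in 500 mg/kg replicate 2.

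The kidney difference departed from the liver difference past the threshold for Sectm1b by -0.83, Ush1c by -0.85, Me1 by -1.03 and -0.90 on its 2 probe sets, Tnfaip8l1 by -0.82, Asgr1 by -0.64, Sqstm1 by -0.45 and C5l1 by 0.67. A pair of probe sets without a gene symbol in the platform annotation differed by -0.70 and 0.61.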

How the results depend on the processing

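The pooled count of 0 was 1 without the 300 mg/kg dose and 0 in every other alternative, each array left out in turn included. The count for 300 mg/kg ran from 0 to 24 and that for 500 mg/kg from 0 to 25 with 1 array left out. The largest counts came without 1 mg/kg replicate 2, which leaves the array with albumin alone at 1 mg/kg, assumed to vary like the other groups; they include Alb and other hepatocyte transcripts. Without 300 mg/kg replicate 1 the 300 mg/kg count was 1, and the 500 mg/kg count was 5 without 300 mg/kg replicate 2, 1 without 300 mg/kg replicate 3 and 3 without 500 mg/kg replicate 1. The organ difference count of 10 was 3 with each dose and organ as its own group, 25 over the brighter probe sets, 4 after a second quantile normalization, 17 without the arrays with Ucp1 or Alb, and 2 to 35 with 1 kidney array left out. It was 35 without 300 mg/kg replicate 2, 34 without 0.1 mg/kg replicate 2, 3 without 0.1 mg/kg replicate 1, 4 without 500 mg/kg replicate 2, 2 without 500 mg/kg replicate 3, and 6 without 1 mg/kg replicate 1 or either 10 mg/kg array. The cause was not tested. Deviations from the dose means correlated at -0.132 to 0.181 over 17 same-numbered pairs of arrays, and 5 were over 0.1. With 2 arrays at a dose the deviations mirror each other, so the pairs are not independent. They cannot settle whether replicate numbers pair the arrays. With the replicate block on the 11 numbered arrays the pooled count was 0 (2310 at an unadjusted p under 0.05, against 2806 without it), and 0 for each high dose. Signs turned only for 7 genes of interest, none past the threshold: without the 0.1 mg/kg dose Nqo1 was -0.01, Adh1c 0.02, Havcr1 0.03 and Spp1 -0.38; without the 500 mg/kg dose Cdkn1a was 0.10, Adh1c 0.04, Havcr1 0.19 and Spp1 -0.18; Clu was -0.04 without the 300 mg/kg dose, Lcn2 -0.15 without the arrays with Ucp1, and Adh1c 0.00 with the block. With 1 array left out, Cdkn1a ran from -0.20 to 0.02, Adh1c ran from -0.15 to 0.04, Havcr1 ran from -0.29 to 0.05, Lcn2 ran from -0.02 to 0.21, Clu ran from 0.00 to 0.13 and Spp1 ran from -0.14 to 0.41. Among list medians, 19 moved by more than the spread between arrays and 1298 did not.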
